A study of Arabidopsis thaliana with 17 samples.

Results

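The 6 genes of flavonoid and anthocyanin synthesis described here, 6 of 22746 probe sets tested, were followed through mutant Arabidopsis thaliana plants treated with salicylic acid (SA), the hormone of plant immunity against biotrophic pathogens. The members were chosen by identity: DFR (249215_at, AT5G42800) through the platform annotation, and 5 probe sets through the gene named for their ID when the members were chosen. Those 5 are CHS (250207_at, AT5G13930, TT4 in RefSeq), F3H (252123_at, AT3G51240), FLS1 (250533_at, AT5G08640), LDOX (254283_s_at, a symbol RefSeq gives to AT4G22880) and PAP1 (245628_at, AT1G56650). The platform table used here does not list these 5, so their gene names rest on that choice. The LDOX probe set carries the suffix _s_at, which marks one that can match more than 1 transcript.

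Flavonoids are built from phenylalanine through the phenylpropanoid pathway. Chalcone synthase (CHS) makes the first flavonoid skeleton, and flavanone hydroxylase (F3H), further along, makes dihydroflavonols, where the pathway forks. Flavonol synthase (FLS1) leads to flavonols, colourless pigments that absorb ultraviolet light, while dihydroflavonol reductase (DFR) and leucoanthocyanidin dioxygenase (LDOX) lead to the red and purple anthocyanins. PAP1 (MYB75) is a MYB transcription factor that turns on anthocyanin genes, DFR and LDOX among them. In rosette leaves these genes are known to respond to light, sugar, cold and nutrient shortage.

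The arrays were Affymetrix ATH1 arrays of soil-grown plants, 3 weeks old and labelled as seedlings, sampled 16 hours after 0.5 mM SA or water. Every plant carried npr1, which disables the main co-activator of SA responses, and sni1, which removes a negative regulator of them, so no group here shows the response of plants free of both. The groups were npr1 sni1 ssn2 (the ssn2 triple) after SA (2 arrays) or water (3), npr1 sni1 brca2a (the brca2a triple) after SA or water (3 each), and npr1 sni1 (the double) after SA or water (3 each). For the ssn2 samples the described treatment mentions brca2a, and their titles and genotype entries, which name ssn2, were followed. The ssn2 arrays were deposited in a table of their own, so no level or effect was tested across the 2 tables, and genotype and experiment cannot be told apart between them.

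One array stood apart. Replicate 2 of the double in water correlated with the other 2 of its group at r = 0.980 at the lowest across probe sets, against 0.997 between those 2, and the results of the members on these 12 arrays, brca2a triple and double, are therefore given with and without it. Replicate 2 of the brca2a triple after SA was high in DFR and LDOX, and results on these genes are also given without both arrays, a choice made after seeing the data. The leaf gene RCA (rubisco activase), the only 1 of 5 leaf markers with a one-gene probe set, had 13429 to 14773 units on the 12 arrays and 10008 to 11895 units on the 5. PYK10, a root beta-glucosidase gene and the only measured one of 3 root markers, had 457 to 731 and 667 to 961 units. None of the 6 seed and flower markers was measured in this sense.

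**Figure D1:**
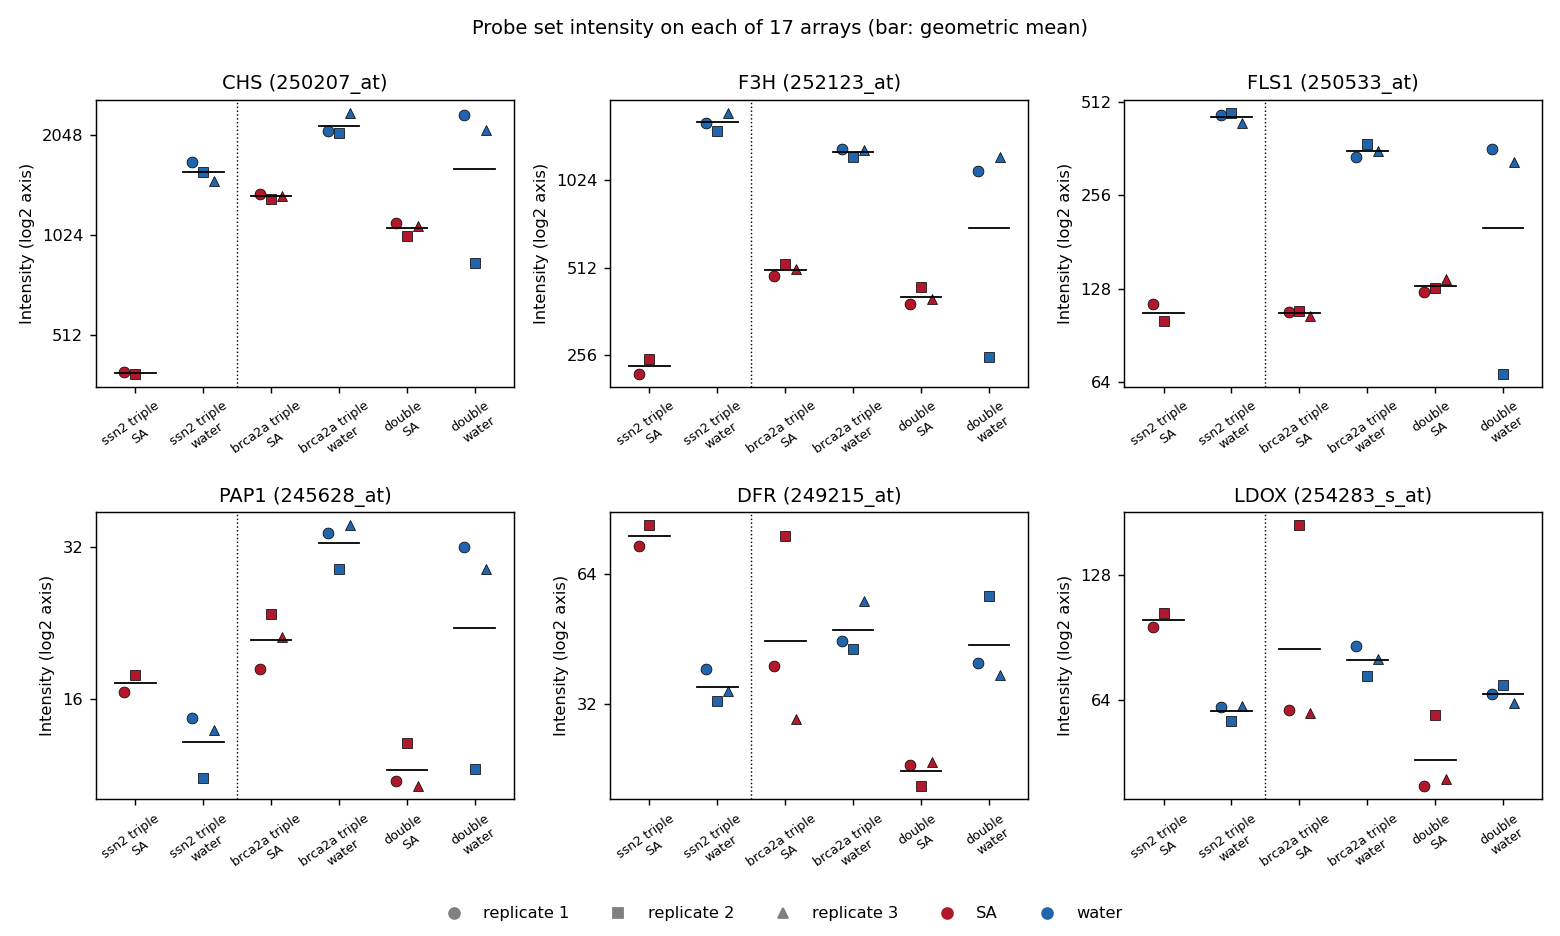
Intensity of each member (vertical axis, log2 spaced) on the 17 arrays, by group along the horizontal axis; symbols give the replicate number, red marks SA, blue marks water, bars are geometric means, and the ssn2 arrays left of the dotted line come from a table of their own. CHS, F3H and FLS1 are low on all ssn2 and brca2a SA arrays, and the water array of the double drawn as a square lies at 845, 253 and 68.2 units, below the other 2 water arrays.

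The members differed in direction after SA in the ssn2 triple. CHS, F3H and FLS1 fell 3.91-, 6.52- and 3.84-fold, while the anthocyanin genes DFR and LDOX rose 1.86- and 1.52-fold. PAP1 had a small difference that did not pass the test. Folds and log2 fold changes are on the log2(intensity + 16) scale, which understates changes of dim probe sets, and the test was limma's moderated fit with Benjamini-Hochberg adjustment over all 22746 probe sets (threshold 0.05).

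CHS had 396 and 393 units on the SA arrays of the ssn2 triple, against 1701, 1586 and 1493 units on its water arrays. No SA array came near the lowest water array, and the log2 fold change was -1.97 ± 0.07 (standard error, 2 arrays against 3, adjusted p = 1.2e-05 in limma). F3H had 221 and 249 units after SA, against 1608, 1515 and 1743 units in water. Its log2 fold change of -2.71 ± 0.08 (limma adjusted p = 7.9e-06) was the largest in size of the 6 members. FLS1 had 114 and 101 units after SA, against 464, 472 and 437 units in water, with no overlap. It fell by 1.94 on the log2 scale (± 0.07, limma adjusted p = 1.4e-05).

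DFR and LDOX, the 2 members of the anthocyanin branch, lay the other way. DFR had 74.5 and 83.1 units on the SA arrays, against 38.6, 32.5 and 34.2 units on the water arrays. Every SA array was above every water array, and DFR rose by 0.89 ± 0.07 (2 arrays against 3, limma adjusted p = 0.00031). LDOX had 96.0 and 104 units after SA, against 61.5, 57.2 and 61.8 units in water. It too showed no overlap and rose by 0.61 ± 0.06 (limma adjusted p = 0.00058). PAP1, the regulator, had 16.5 and 17.9 units after SA, against 14.7, 11.1 and 13.9 units in water. Its arrays did not overlap either, but its log2 fold change of 0.18 ± 0.07 did not pass (limma adjusted p = 0.092), and this probe set is dim, at percentile 26.8 of mean intensity in the table.

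In all, 3 members fell and 2 rose in the ssn2 triple, where 33.2% of all probe sets passed the threshold (18.8% higher and 14.5% lower). The median log2 fold change was -1.97 for CHS, F3H and FLS1 and 0.61 for DFR, LDOX and PAP1, beside 0.00 for all probe sets. All 6 members had arrays that did not overlap, as did 27.9% of all probe sets upward and 25.2% downward. Every call held without any single array of the 5; with 1 SA array left, the lone array is assumed to vary like the water arrays. The log2 ratio of the 3-prime to the 5-prime GAPDH control probe set was 0.35 and 0.41 on the SA arrays and 0.21 to 0.28 on the water arrays, so this sign of RNA quality moved with SA here. The same ratio for actin was 3.28 and 3.47 on the SA arrays and 3.13 to 3.34 on the water arrays, which overlap. PYK10 had 705 and 667 units after SA, against 953 to 961 units in water, a log2 fold change of -0.47 (limma adjusted p = 0.00085). Their part in the results was not tested. In whole plants, fewer cells that express a gene and less RNA per cell cannot be told apart.

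**Figure D2:**
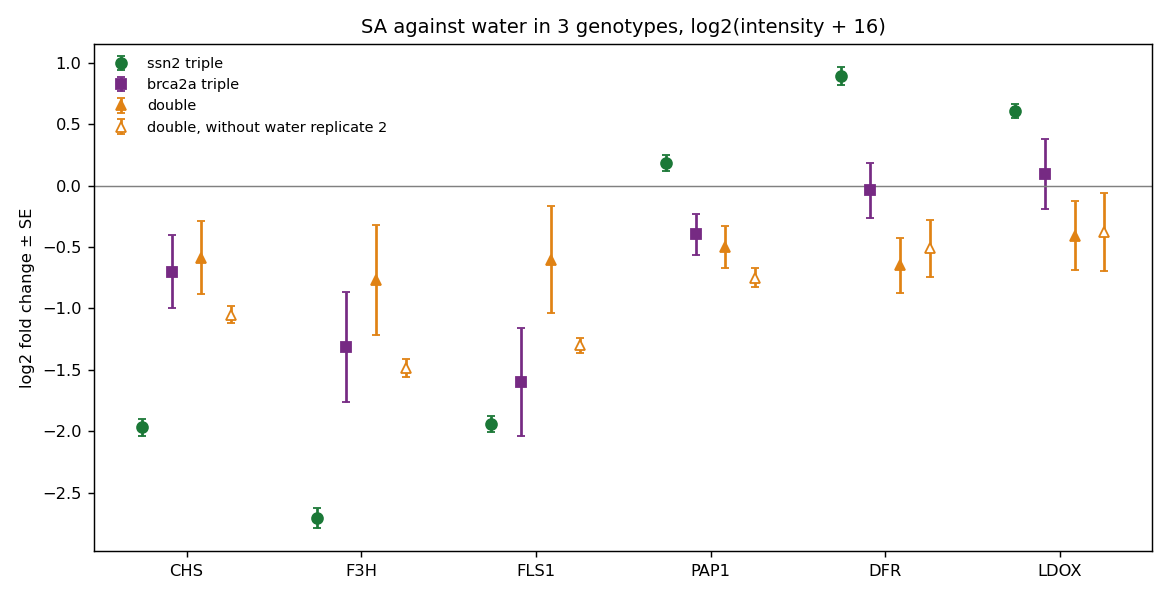
Log2 fold change of SA against water (vertical axis, log2(intensity + 16), bars are standard errors) of each member in the ssn2 triple, the brca2a triple and the double; open triangles are the double without water replicate 2. In the ssn2 triple CHS, F3H and FLS1 lie at -1.97, -2.71 and -1.94 and DFR and LDOX at 0.89 and 0.61.

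In the brca2a triple CHS, F3H and FLS1 were again lower after SA on every array, but the calls depend on the array of the double that stands apart, because its spread enters the shared fit. CHS had 1364, 1321 and 1343 units on the SA arrays of the brca2a triple, against 2109, 2082 and 2396 units on its water arrays. F3H had 479, 526 and 506 units after SA, against 1307, 1225 and 1295 units in water. FLS1 had 108, 108 and 104 units after SA, against 340.0, 373 and 355 units in water. No SA array of these 3 genes reached a water array, and with PAP1 the same held for 4 members, as it did downward for 16.9% of all probe sets. The log2 fold changes were -0.70 ± 0.30 for CHS, -1.31 ± 0.45 for F3H and -1.60 ± 0.44 for FLS1 (3 arrays against 3, limma adjusted p = 0.20, 0.13 and 0.070).

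Without double water replicate 2 the same 3 fold changes had standard errors of 0.06, 0.06 and 0.05, and limma adjusted p = 6.4e-05, 1.7e-06 and 2.5e-07. PAP1 had 18.3, 23.6 and 21.2 units on the SA arrays of the brca2a triple, against 34.1, 29.0 and 35.3 units on the water arrays. Its groups did not overlap, and the log2 fold change of -0.40 ± 0.17 (limma adjusted p = 0.21) passed without that array (± 0.07, 0.0031). With all 12 arrays, limma called 0 of 6 members at the adjusted threshold and 4 at an unadjusted p under 0.05, where 4.65% of all probe sets were called and 21.3% had such an unadjusted p. Without that array it called 4, all lower, where 7.52% of all probe sets were called lower. With the 2 groups of the brca2a triple fitted alone, it also called 4 lower, where 5.52% of all were.

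DFR and LDOX did not show this in the brca2a triple. DFR had 39.1, 78.4 and 29.4 units after SA, against 44.8, 42.9 and 55.4 units in water. LDOX had 60.7, 169 and 59.6 units after SA, against 86.6, 73.2 and 80.2 units in water. In both genes SA replicate 2 was the highest array of the 6 and the other 2 SA arrays lay below all water arrays. The log2 fold changes were -0.04 ± 0.22 and 0.09 ± 0.28 (limma adjusted p = 0.95 and 0.89). Double water replicate 2 has no part in these fold changes, and without it limma gave adjusted p = 0.94 and 0.88. Without both replicate 2 arrays they were -0.34 ± 0.10 and -0.33 ± 0.12 (2 SA arrays, limma adjusted p = 0.051 and 0.10).

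In the double, SA lowered no member past the threshold when all 12 arrays were used. Calls of CHS, F3H, FLS1 and PAP1 depended on 1 water array, and those of DFR and LDOX on an SA array of the brca2a triple. CHS had 1115, 1018 and 1096 units on the SA arrays of the double, against 2364, 845 and 2132 units on its water arrays. F3H had 385, 440.1 and 398 units after SA, against 1104, 253 and 1233 units in water. FLS1 had 125, 128 and 138 units after SA, against 362, 68.2 and 327 units in water. In each of the 3, water replicate 2 lay below all SA arrays and the other 2 water arrays lay above them. The log2 fold changes were -0.59 ± 0.30, -0.77 ± 0.45 and -0.60 ± 0.44 (3 arrays against 3, limma adjusted p = 0.33, 0.41 and 0.55).

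Without double water replicate 2 these genes fell in the double, with log2 fold changes of -1.05 ± 0.07 for CHS, -1.48 ± 0.07 for F3H and -1.30 ± 0.06 for FLS1 (3 arrays against 2, limma adjusted p = 3.4e-06, 3.3e-07 and 3.0e-07). PAP1 had 10.98, 13.1 and 10.7 units on the SA arrays of the double, against 32.1, 11.6 and 28.9 units on the water arrays. It was low on the same water array as the 3 enzymes, with a log2 fold change of -0.50 ± 0.17 over all arrays and -0.75 ± 0.08 without that array (limma adjusted p = 0.12 and 6.0e-05).

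DFR and LDOX were not low on that array. DFR had 23.0, 20.6 and 23.4 units after SA in the double, against 39.8, 57.0 and 37.3 units in water, where the array that stands apart was the highest. LDOX had 39.7, 59.0 and 41.3 units after SA, against 66.3, 69.7 and 63.1 units in water. Every SA array lay below every water array in both genes, as in 11.1% of all probe sets. The log2 fold changes were -0.65 ± 0.22 and -0.41 ± 0.28 (limma adjusted p = 0.13 and 0.52), and without double water replicate 2 they were -0.51 ± 0.23 and -0.38 ± 0.32 (0.18 and 0.53). Leaving out SA replicate 2 of the brca2a triple, an array of another genotype that shares the variance estimate, both passed as lower (limma adjusted p = 0.014 and 0.0496), where 2.29% of all probe sets did. Without both replicate 2 arrays all 6 members fell in the double, DFR by 0.51 ± 0.10 and LDOX by 0.38 ± 0.12 (limma adjusted p = 0.0047 and 0.045).

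Over all 12 arrays limma called 0 of 6 members for SA in the double and 2 at an unadjusted p under 0.05, where 7.47% of all probe sets were called and 19.0% had such an unadjusted p. It called 4 lower without double water replicate 2, where 10.3% of all were called lower, and 6 lower without both replicate 2 arrays, where 10.6% were. The median log2 fold change of the 6 was -0.59 with all arrays and -0.90 without double water replicate 2, beside -0.01 for all probe sets in both fits.

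An interaction term tested the SA effect for a difference between the brca2a triple and the double, and no member passed. The SA effect in the brca2a triple minus that in the double was -0.11 ± 0.42 for CHS, -0.54 ± 0.63 for F3H, -0.997 ± 0.62 for FLS1, 0.10 ± 0.24 for PAP1, 0.61 ± 0.32 for DFR and 0.50 ± 0.40 for LDOX (12 arrays, limma adjusted p between 0.48 and 0.95). None had an unadjusted p under 0.05, and 1.94% of all probe sets were called. Without double water replicate 2 the differences of CHS and F3H changed sign, to 0.35 ± 0.10 and 0.17 ± 0.10, that of FLS1 was -0.30 ± 0.08, and those of PAP1, DFR and LDOX were 0.35 ± 0.10, 0.47 ± 0.31 and 0.47 ± 0.42. Again limma passed 0 of 6, with 3 at an unadjusted p under 0.05, where 4.68% of all were called and 16.7% had such an unadjusted p.

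The brca2a triple was set against the double in each treatment. After SA, CHS, F3H and PAP1 were higher in the brca2a triple and FLS1 lower, with no overlap of the arrays; DFR and LDOX were also higher without overlap (15.1% of all probe sets higher and 10.8% lower). CHS had a log2 fold change of 0.32, F3H of 0.30, PAP1 of 0.42 and FLS1 of -0.25. These 4 passed without double water replicate 2 (limma adjusted p = 0.011, 0.015, 0.0027 and 0.015), where 8.92% of all probe sets were called, and with the 2 groups fitted alone (0.0073, 0.029, 0.0074 and 0.019), where 8.97% were. In the shared fit of all 12 arrays 0 of 6 passed (limma adjusted p from 0.15 to 0.90), 3 had an unadjusted p under 0.05, and of all probe sets 4.26% were called and 14.5% had such an unadjusted p. DFR and LDOX had 0.69 ± 0.22 and 0.72 ± 0.28 in that fit (limma adjusted p = 0.15 and 0.25, and 0.071 and 0.17 without double water replicate 2). Without both replicate 2 arrays they had 0.38 ± 0.10 and 0.29 ± 0.12 (limma adjusted p = 0.043 and 0.19), and in that setting F3H did not pass (0.054), so 4 passed where 7.65% of all did.

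In water the members had log2 fold changes of 0.08 to 0.84 in the brca2a triple against the double, with F3H at 0.84 ± 0.45 and FLS1 at 0.75 ± 0.44 the highest. By limma 0 of 6 passed, 0 had an unadjusted p under 0.05, and 0.0747% of all probe sets were called. Without double water replicate 2 the 6 values lay between -0.03 and 0.25, and 0 passed, where 0.47% of all were called. F3H then had 0.13 ± 0.07 and FLS1 0.05 ± 0.06.

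**Figure D3:**
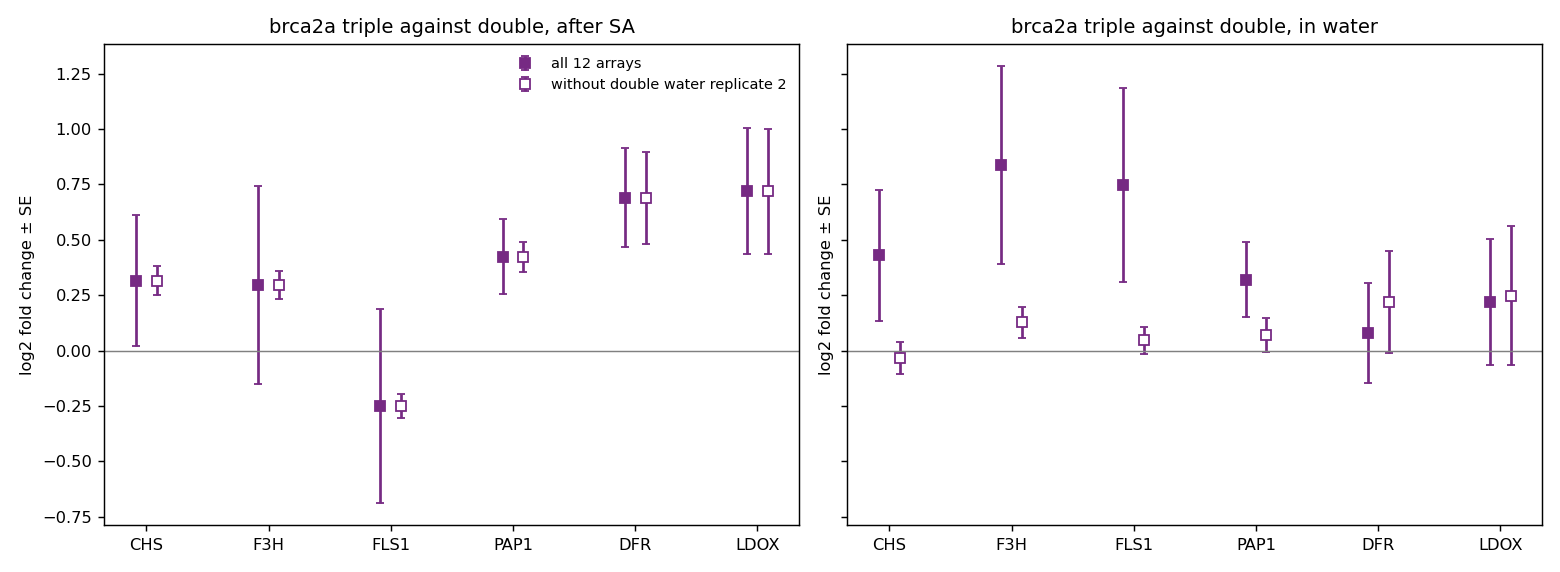
Log2 fold change (vertical axis, log2(intensity + 16), bars are standard errors) of each member, brca2a triple against double, after SA and in water, with all 12 arrays (filled) and without double water replicate 2 (open). After SA the values cannot move, since that array has no part in them, and their errors shrink for CHS, F3H, FLS1 and PAP1. In water F3H and FLS1 lie at 0.13 and 0.05 without that array, against 0.84 and 0.75 with it.

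Other genes of the pathway were read from 5 lists of 68 genes beside the members, of which 15 had a one-gene probe set. In the ssn2 triple 7 of these 15 fell with SA and 2 rose, with a median log2 fold change of -0.29, where 14.5% and 18.8% of all probe sets fell and rose. CHIL, the chalcone isomerase-like protein that supports flavonoid synthesis, had 169 and 162 units after SA, against 971, 838 and 936 units in water. It fell by 2.36 ± 0.07 (2 arrays against 3, limma adjusted p = 9.6e-06). CHIL was the only measured gene of the early flavonoid list beside the members.

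Of the genes that add sugars to flavonoids, some fell and others did not pass. AT1G06000, placed on the list as a flavonol rhamnosyltransferase gene, had 155 and 158 units after SA in the ssn2 triple, against 924, 950.3 and 1057 units in water. It fell by 2.52 ± 0.07 (limma adjusted p = 6.3e-06). UGT78D2, a flavonoid glucosyltransferase gene, fell by 1.66 ± 0.07 (3.0e-05), and UGT78D1, a flavonol rhamnosyltransferase gene, by 0.98 ± 0.11 (0.0010). These were 3 of the 8 measured genes of the late and decoration list, 0 rose and 5 did not pass, with log2 fold changes of -0.07 to 0.06. The 5 were UGT78D3, a flavonol arabinosyltransferase gene at -0.07 ± 0.06 (limma adjusted p = 0.52), UF3GT, AT5MAT, BAN and AT4G14090. UF3GT and AT5MAT decorate anthocyanins, BAN is a reductase gene of seed coat tannins, and AT4G14090 had the highest value, 0.06.

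Of the 23 genes of the regulator list beside the members, 2 had a one-gene probe set. Both fell with SA in the ssn2 triple, where the regulator PAP1 did not pass. HYH, a bZIP factor of light signalling related to HY5, had 72.5 and 61.4 units after SA, against 486, 459 and 499 units in water, and fell by 2.59 ± 0.07 (limma adjusted p = 7.1e-06). TRY, a single-repeat MYB that inhibits trichome formation, had 31.0 and 39.5 units after SA, against 124, 122 and 133 units in water, and fell, with a log2 fold change of -1.48 ± 0.08 (7.5e-05). Of the 9 genes of the general phenylpropanoid list, 0 had a one-gene probe set, so the supply of precursors was not analysed here.

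The lignin and sinapate list was mixed. UGT84A3, which makes glucose esters of hydroxycinnamates, had 225 and 217 units after SA in the ssn2 triple, against 94.5, 99.6 and 94.7 units in water, and rose by 1.08 ± 0.05 (limma adjusted p = 4.1e-05). ALDH2C4, an aldehyde dehydrogenase gene for ferulate and sinapate, rose by 0.67 ± 0.05 (0.00019), and the lignin gene HCT fell by 0.29 ± 0.05 (0.0054). UGT84A3 went the other way in the other genotypes. It had 83.8, 88.7 and 81.6 units after SA in the brca2a triple, against 129, 111 and 115 units in water, and fell by 0.42 ± 0.06 (limma adjusted p = 0.0092). In the double it had 65.1, 70.9 and 76.8 units after SA, against 102, 111 and 110 units in water, and fell by 0.51 ± 0.06 (0.00072). Both calls of UGT84A3 held without double water replicate 2 (limma adjusted p = 0.0018 and 0.00080). HCT had a log2 fold change of -0.25 ± 0.06 in the double (limma adjusted p = 0.042), a call that ended in 12 of 21 alternatives (up to 0.15).

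With all 12 arrays 1 of the 15 was called for SA in the brca2a triple and 2 in the double, all lower. In those fits 464 and 577 of all 22746 probe sets were called lower. Without double water replicate 2 these counts were 7 and 8, again all lower, where 7.52% and 10.3% of all probe sets were called lower. With all 12 arrays CHIL had -1.15 ± 0.33 in the brca2a triple and -0.71 ± 0.33 in the double (limma adjusted p = 0.077 and 0.27), and AT1G06000 had -1.27 ± 0.56 and -0.34 ± 0.56 (0.23 and 0.85). Without that water array CHIL fell by 1.15 ± 0.07 in the brca2a triple and 1.22 ± 0.08 in the double (limma adjusted p = 4.4e-06 and 1.9e-06), and AT1G06000 by 1.27 ± 0.08 and 1.24 ± 0.09 (5.9e-06 and 5.1e-06). AT1G06000 had 192, 199 and 201 units after SA in the double, against 476, 61.8 and 497 units in water, so the water array that stands apart was low here too. With all 12 arrays TRY had -0.46 ± 0.29 in the brca2a triple and -0.49 ± 0.29 in the double (limma adjusted p = 0.39 and 0.42), and HYH had -0.63 ± 0.19 and -0.035 ± 0.19 (0.091 and 0.96). Without that array TRY fell by 0.46 ± 0.09 in the brca2a triple and by 0.93 ± 0.11 in the double (limma adjusted p = 0.0074 and 0.00012). HYH fell by 0.63 ± 0.08 and 0.31 ± 0.09 (0.00041 and 0.028). UGT78D1 then had a weaker fall in the brca2a triple (interaction with the double as baseline 0.47 ± 0.10, limma adjusted p = 0.020), with 0.08 ± 0.35 over all 12 arrays (0.96). It was the only 1 of the 15 called for the interaction without that array, where 4.68% of all probe sets were called.

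**Figure D4:**
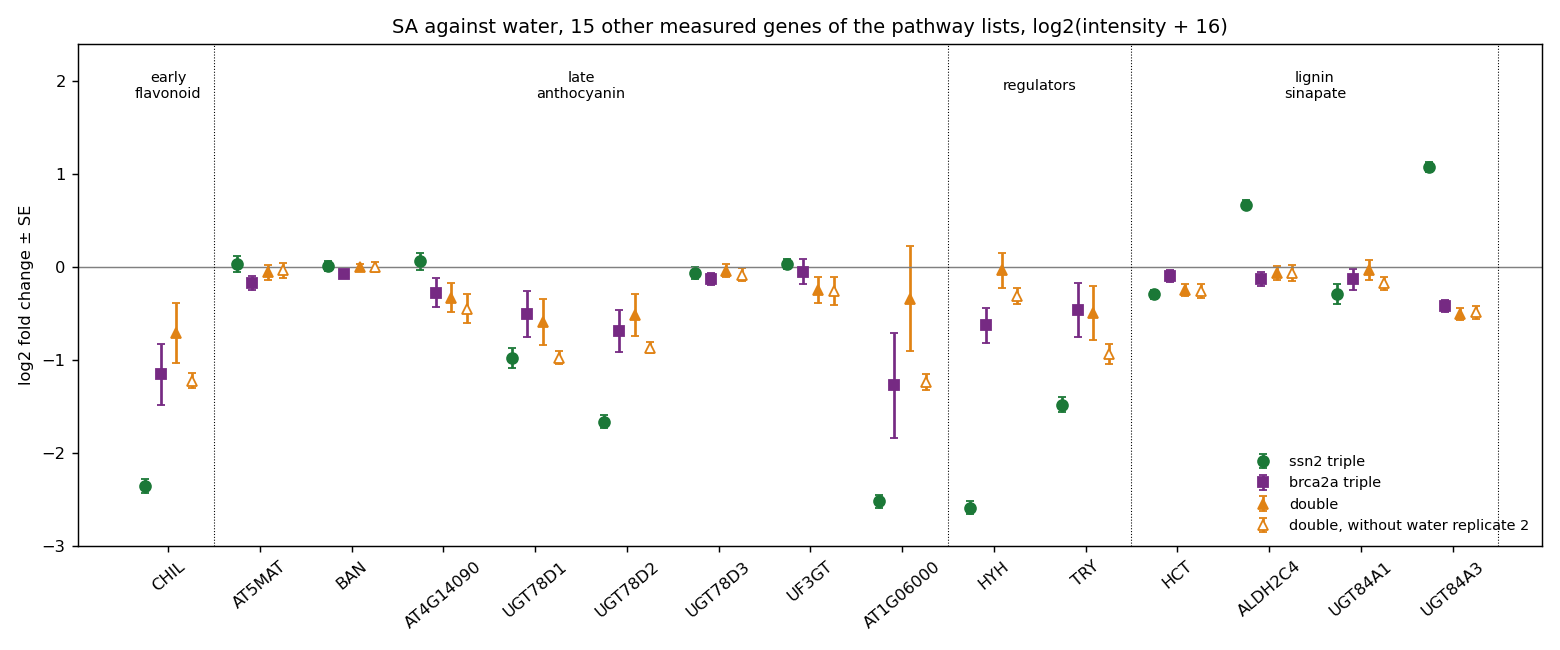
Log2 fold change of SA against water (vertical axis, log2(intensity + 16), bars are standard errors) for the 15 other measured genes, grouped by list, in the ssn2 triple, the brca2a triple and the double, with the double also without water replicate 2 (open). CHIL, AT1G06000 and HYH lie at -2.36, -2.52 and -2.59 in the ssn2 triple, and UGT84A3 lies at 1.08 there and below 0 in the other genotypes.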

How the data were processed

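Probe set intensities were deposited in 2 tables, of 12 and 5 ATH1 arrays; the submitters' processing notes name PLIER, with no version or settings given here. The intensities are linear and above 0, with array medians of 57.2 to 61.9; how the authors normalized them is not stated. A log2 value table, also deposited, holds numbers that equal the log2 intensity less one constant for each probe set (largest deviation 1.5e-06; column medians -0.022 to 0.029; the origin of the constant for the 5 arrays is unknown), and served as an alternative. The number of arrays limits the precision.

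From these, 64 control probe sets were left out and log2(intensity + 16) was fitted with group means by limma 3.58.1 (lmFit, eBayes; R 4.3.3), 1 fit per table, with Benjamini-Hochberg adjustment over 22746 probe sets, two-sided, and a threshold of 0.05. Tests were checked on simulated data with independent noise and no array that stands apart, so that check does not cover such an array. Gene names come from the platform table (13513 probe sets with 1 gene, 503 with several, 8730 not listed) and RefSeq symbols of TAIR10.1. Alternatives were other pseudocounts, a filter on dim probe sets, other scalings, the value table, groups fitted alone, a replicate block and single arrays left out. Replicates came from independent experiments, per the labels. Same-numbered arrays deviated from their group means with r between -0.33 and 0.16, so the numbers were not taken as pairs. Named are all members, list genes past the threshold (at most 8 per comparison, by size) and the 5 and 3 genes most like the members and DFR. Members and lists were chosen with earlier results of these data known. No sequences are printed.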

Additional observations from a re-analysis of the deposited data

Results flagged for a closer look

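For 4 genes every SA array lay on one side of the water arrays in the ssn2 triple and on the other side in another genotype; these differences were not tested, since the ssn2 arrays were deposited in another table. The log2 SA effect of DFR was 0.89 in the ssn2 triple and -0.65 in the double, a difference of 1.54. For LDOX the effects were 0.61 in the ssn2 triple and -0.41 in the double, a difference of 1.01. The effects of DFR and LDOX in the ssn2 triple passed the threshold. In the main fit their effects in the double did not pass (limma adjusted p = 0.13 and 0.52). That of DFR passed in the value table and with the groups fitted alone. In the brca2a triple DFR and LDOX had -0.04 and 0.09, and neither passed (limma adjusted p = 0.95 and 0.89). For PAP1 the effects were 0.18 in the ssn2 triple and -0.40 in the brca2a triple, a difference of 0.58, with neither past the threshold. For UGT84A3 the effect of 1.08 in the ssn2 triple differed by 1.58 from that in the double and by 1.49 from that in the brca2a triple.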

How the results depend on the processing

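Of 696 values of members under an alternative, 638 kept their direction and side of the threshold, 44 passed only there, 0 were lost and 14 changed sign. A call could be lost only where the main fit had one, which was for 5 members with SA in the ssn2 triple. Elsewhere, keeping the side of the threshold means passing in neither fit. Some alternatives leave a fold change as it was by design, so its direction could not change there. These are an array outside the comparison left out, groups fitted alone and dim probe sets left out. For SA in the ssn2 triple 5 members passed without any single array, and PAP1 also passed with a pseudocount of 1 and in the value table (adjusted p = 0.043 and 0.041). For SA in the brca2a triple 1 member passed with a pseudocount of 1, with dim probe sets left out or in the value table, 4 with the groups fitted alone, and 0 to 4 with arrays left out. For SA in the double DFR alone passed in the value table or with the groups fitted alone, and 0 to 6 members passed with arrays left out. After SA the brca2a triple against the double had 4 with the groups fitted alone and 0 to 4 with arrays left out. The interaction and the comparison in water had 0 throughout. With arrays left out, the SA effect in the brca2a triple ranged from -0.34 to 0.18 for DFR and from -0.33 to 0.31 for LDOX, and in the double from -0.31 to 0.18 for HYH and from -1.24 to 0.12 for AT1G06000. The interaction ranged from -0.046 to 0.35 for PAP1, -0.38 to 0.36 for CHS and -0.94 to 0.17 for F3H, and in water the brca2a triple against the double from -0.035 to 0.70 for CHS and -0.0084 to 0.22 for DFR. Single arrays moved the count of all probe sets called from 1700 to between 1090 and 4464 (SA in the double), from 1057 to between 379 and 3495 (SA in the brca2a triple), from 442 to between 329 and 1065 (interaction), from 970 to between 662 and 2028 (after SA) and from 17 to between 1 and 107 (water); with groups fitted alone it was 939, 2599, 2040 and 2 for SA in the double, SA in the brca2a triple, after SA and in water. Without both double water replicate 2 and brca2a triple SA replicate 2 it was 4596, 2754, 949, 1739 and 153 in the order of the previous single-array counts, and it was 11 for water in the value table. With the replicate block the members called were 5 in the ssn2 triple and 0 elsewhere; the block ended the call of HCT in the double (adjusted p = 0.065) and made the water count 3, and changed no other call of a named gene.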

Other observations

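Genes were ranked by likeness to the mean standardized level of the 6 members over the 12 arrays outside the ssn2 triple, with genes of the lists left out. The 5 most alike were ALDH3F1 (Pearson r = 0.96, Spearman rho = 0.94), UGT76E11 (0.96 and 0.92), AT5G43150 (0.96 and 0.91), AT1G68570 (0.96 and 0.94) and AT5G24000 (0.95 and 0.94). These are descriptions over arrays that share the treatment and genotype groups. Over the 12 arrays CHS had r = 0.98 with F3H, 0.93 with FLS1 and 0.95 with PAP1. With DFR and LDOX it had 0.29 and 0.26, so the mean of the 6 need not stand for DFR and LDOX. Without double water replicate 2 their r lay between 0.95 and 0.96. Over the 5 ssn2 arrays r lay between -0.57 and 0.32. There the members opposed each other (r = -0.98 between CHS and DFR), so their mean followed neither side. These r therefore cannot show whether likeness to single members was kept. Of the 5, AT5G43150 fell with SA in the ssn2 triple (log2 fold change -2.41 ± 0.10, limma adjusted p = 2.7e-05), and the other 4 did not pass.

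The 3 genes most like DFR alone over the 12 arrays were AT1G20070 (r = 0.87, rho = 0.88), AT1G63010 (0.87 and 0.82) and AT5G16010 (0.86 and 0.66). In the ssn2 triple, where DFR rose, AT5G16010 rose by 0.57 ± 0.07 (limma adjusted p = 0.0020), AT1G20070 fell by 1.14 ± 0.06 (5.9e-05), and AT1G63010 had 0.29 ± 0.09 (0.058).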
